A study of Mus musculus with 6 samples.

Results

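Claudins are the membrane proteins that seal tight junctions or form their pores. The transcripts of 10 claudin genes with known places along the nephron were compared between kidneys of mice carrying the intracellular domain of megalin (ICD) and kidneys of wild type littermates (WT). Every probe set that the platform annotation assigns to 1 gene only, and to one of Cldn1, Cldn2, Cldn3, Cldn4, Cldn5, Cldn7, Cldn8, Cldn10, Cldn16 and Cldn19, was taken. This gave 17 probe sets of 10 genes, among 45037 probe sets tested and 18194 genes with such a probe set. All 10 genes had at least 1 probe set, and 3 of them (Cldn1, Cldn2 and Cldn3) had several.

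Total RNA of whole adult kidney was hybridised to 1 Affymetrix array per animal. The ICD group consisted of 3 male mice aged 10 weeks, heterozygous for an allele that expresses megalin's soluble cytoplasmic tail, and the WT group of 3 male littermates of the same age that do not carry it. The strain, the promoter that drives the allele and the cells that express it are not given in the labels used here. Values are log2 expression after RMA, so a difference of 1 is a doubling, and levels of different probe sets are not compared as amounts of transcript. Brightness is used only to choose among probe sets and to mark dim ones.

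Megalin is the endocytic receptor of the proximal tubule, and the study asked whether its released tail alters proximal tubular function. Claudins bear on that function because the paracellular route carries part of the salt, water and divalent cations that the tubule reabsorbs. Each nephron segment expresses its own set. The leaky proximal tubule relies on Cldn2 and on one isoform of Cldn10, the thick ascending limb on another isoform of Cldn10 and on Cldn16 and Cldn19, and the tight distal nephron and collecting duct on Cldn3, Cldn4, Cldn7 and Cldn8. Cldn1 lines the parietal epithelium of Bowman's capsule. Cldn5 seals endothelial junctions and is also found in podocytes of the mouse glomerulus.

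Promoter sequences are shown for the genes whose arrays separated by genotype, Cldn1 and Cldn5, and for both start sites of Cldn10, whose isoforms arise from different first exons. They come from RefSeq (build GRCm38.p6), run 5′ to 3′ from 250 bases before to 50 bases after the start, and lie at chr16:26371790-26372089 on the minus strand for Cldn1 and at chr16:18776597-18776896 on the plus strand for Cldn5. The Cldn10 windows lie on the plus strand at chr14:118787621-118787920 and chr14:118854700-118854999. Capitals mark matches, on either strand, to GGGCGG (the GC box of Sp1), AACCNGTT (grainyhead-like factors), GTTAAT (one arm of the HNF1 site), CACCTG (Snail-type E-box) or TATAAA, and no matches overlapped.
Cldn1: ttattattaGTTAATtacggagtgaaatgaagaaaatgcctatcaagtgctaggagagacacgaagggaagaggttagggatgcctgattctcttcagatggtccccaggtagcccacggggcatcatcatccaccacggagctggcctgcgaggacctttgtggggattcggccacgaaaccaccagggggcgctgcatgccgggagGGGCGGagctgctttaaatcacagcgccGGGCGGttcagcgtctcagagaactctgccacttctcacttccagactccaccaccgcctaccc
Cldn5: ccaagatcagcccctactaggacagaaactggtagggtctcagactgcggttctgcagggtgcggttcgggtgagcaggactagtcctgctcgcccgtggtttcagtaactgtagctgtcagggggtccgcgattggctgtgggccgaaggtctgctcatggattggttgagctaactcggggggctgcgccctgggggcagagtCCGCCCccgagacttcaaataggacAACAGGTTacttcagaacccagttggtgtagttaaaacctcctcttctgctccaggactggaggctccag
Cldn10, upstream start: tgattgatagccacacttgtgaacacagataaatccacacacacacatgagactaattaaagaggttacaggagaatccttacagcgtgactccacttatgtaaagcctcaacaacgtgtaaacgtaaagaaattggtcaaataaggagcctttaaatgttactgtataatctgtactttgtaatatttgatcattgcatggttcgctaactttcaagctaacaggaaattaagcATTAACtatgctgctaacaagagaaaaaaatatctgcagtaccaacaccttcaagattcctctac
Cldn10, downstream start: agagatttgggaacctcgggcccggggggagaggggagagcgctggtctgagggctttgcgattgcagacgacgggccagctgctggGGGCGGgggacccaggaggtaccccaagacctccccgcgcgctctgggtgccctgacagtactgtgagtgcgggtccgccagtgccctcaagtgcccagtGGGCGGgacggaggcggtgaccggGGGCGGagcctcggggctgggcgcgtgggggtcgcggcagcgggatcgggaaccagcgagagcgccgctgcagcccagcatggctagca
The table held 12 windows for 9 of the 10 genes. GGGCGG was present in 8 of these 12 windows and in 35.7% of all 32851 promoter windows. Those 8 windows held 56% to 72% G and C, and the median over all promoter windows was 52.7%. The part of base composition in this count was not tested. The windows of Cldn19 share 272 of their 300 bases and the same matches, so the 8 windows belong to 7 genes. AACCNGTT was present in 1, that of Cldn5, against 2.09% of all windows, and GTTAAT in 2, those of Cldn1 and the upstream Cldn10 start, against 7.1%. CACCTG was found in 3 windows (20.2% of all), one each of Cldn3, Cldn4 and Cldn7, and TATAAA in 1, that of Cldn2 (13.6% of all). The windows of the Cldn10 starts differed in base composition, with 36% G and C upstream and 72% downstream.

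The arrays carried the defining transcripts of the tubule and glomerulus. On the log2 scale Umod, the thick limb's uromodulin, read 14.33 to 14.42 on ICD arrays and 14.32 to 14.43 on WT arrays. Slc34a1, the proximal phosphate transporter, read 14.14 to 14.22 on ICD arrays and 13.92 to 14.17 on WT arrays, and Nphs1, the podocyte protein nephrin, 7.61 to 7.75 and 7.31 to 7.51 on ICD and WT arrays. Lrp2, which encodes megalin, read 12.77, 12.93 and 12.80 on ICD arrays, against 12.92, 12.78 and 12.78 on WT arrays, at its brightest probe set. Whether that probe set covers the introduced allele is not given, so it does not check the genotype. One array stood apart in some transcripts. The proximal tubule marker score, the average deviation of 14 markers from their 6-array means, was 0.078 to 0.16 on ICD arrays and -0.022 to 0.20 on WT 1 and WT 2, but -0.53 on WT 3. Without Slc5a12, which was at 4.12 on WT 3, the score was 0.047 to 0.093 on ICD arrays, 0.10 on WT 1, -0.095 on WT 2 and -0.20 on WT 3. WT 3 was the lowest array for 8 of the 14 markers and the highest for 2, Slc27a2 and Slc22a7. Of all 45037 probe sets 0%, or 0, passed limma's threshold of a Benjamini-Hochberg adjusted p under 0.05, and 2641 had an unadjusted p under 0.05. The replicates are separate animals.

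No claudin passed this test. Adjusted p lay between 0.72 and 0.997 (limma) at the 17 probe sets, with 9 higher and 8 lower in ICD kidneys, a share near the 47.2% of all probe sets that were higher. The median difference, ICD minus WT, was 0.015 over the claudin probe sets and -0.0061 over all probe sets. At an unadjusted limma p under 0.05 there were 3 claudin probe sets, all higher in ICD kidneys, where 5.86% of all probe sets reached that level and 3.61% did so upwards. They belonged to Cldn1 (a pair of probe sets) and Cldn5. Without WT 1 there were 5, of which 3 were higher (2 of Cldn1, 1 of Cldn5) and 2 lower (Cldn4 and Cldn7). Over all probe sets 7.23% reached that level in the fit without WT 1. The Cldn1 probe sets were then 1437932_a_at and 1438851_x_at, and on all arrays 1437932_a_at and 1450014_at. The 3 probe sets found on all 6 arrays were those whose groups did not overlap, as the groups did not for 10.5% of all probe sets. The 95% intervals reached a median of 0.19 to either side of the estimate, both over the claudins and over all probe sets.

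**Figure D1:**
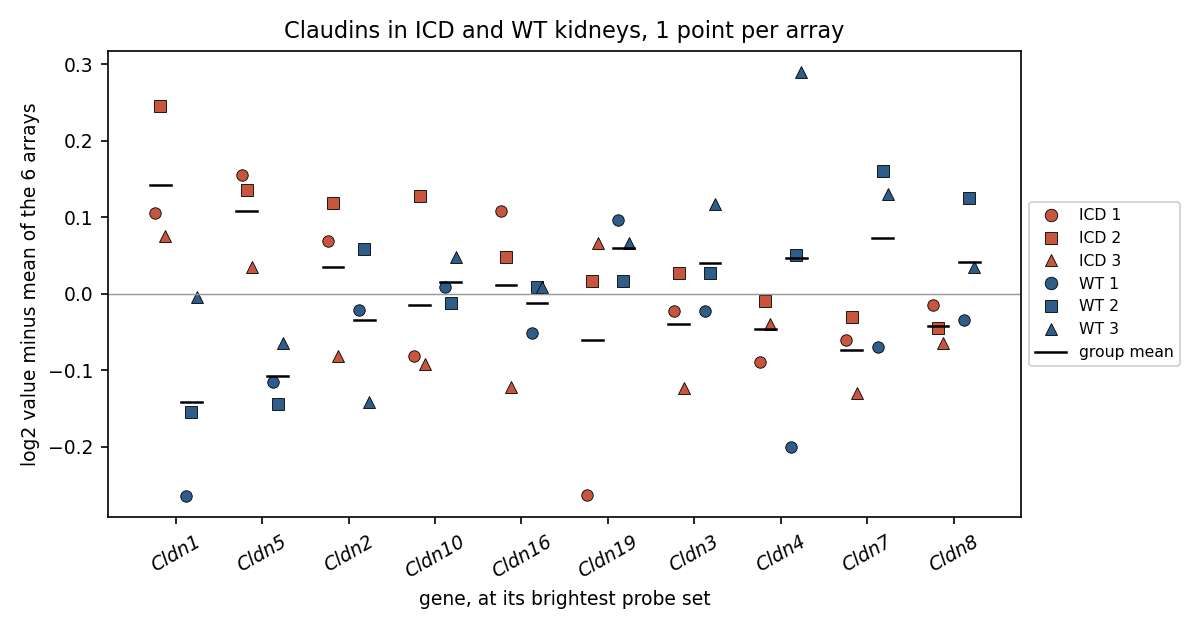
Deviation of each claudin's log2 value, at its brightest probe set, from its 6-array mean, with 1 point per array, ICD left of WT, and a bar at each group mean. ICD and WT points separate for Cldn1 and Cldn5 and overlap for the other 8 genes.

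Cldn1, the barrier claudin of the parietal epithelium, had the largest difference. Its brightest probe set 1437932_a_at read 7.74, 7.88 and 7.71 (log2) on ICD arrays, against 7.37, 7.48 and 7.63 on WT arrays. Every ICD array lay above every WT array, and the gap between ICD 3 and WT 3 was the narrowest. Means were 7.78 ± 0.09 in ICD kidneys and 7.49 ± 0.13 in WT kidneys (SD, n = 3 each). The difference was 0.28 ± 0.087 (SE), or 1.22-fold with a 95% interval of 1.06 to 1.4 (limma unadjusted p = 0.011, adjusted p = 0.72). An exact permutation test gave a 2-sided p = 0.1, the smallest that 3 against 3 arrays allow. A difference of this size or more was measured at 2.88% of all probe sets.

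The other Cldn1 probe sets split by brightness. 1450014_at read 6.23, 6.35 and 6.05 on ICD arrays, against 5.94, 5.99 and 5.97 on WT arrays, again without overlap, a difference of 0.24 ± 0.087 (SE; limma unadjusted p = 0.0231, adjusted p = 0.787). The remaining pair was near the floor of the arrays: 1438851_x_at and 1438850_at were brighter than only 3.1% and 0.6% of all probe sets. Their differences were 0.13 (95% interval -0.057 to 0.33) and -0.049 (-0.22 to 0.12), and their groups overlapped. Averaged over all 4 probe sets, the Cldn1 difference was 0.15. Without any 1 array the difference at 1437932_a_at stayed between 0.22 (without WT 1) and 0.35 (without WT 3), and at 1450014_at between 0.17 (without ICD 2) and 0.32 (without ICD 3).

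Cldn5, the claudin of endothelial junctions, was measured by 1417839_at. It read 7.90, 7.88 and 7.78 on ICD arrays, against 7.63, 7.60 and 7.68 on WT arrays. All 3 ICD arrays lay above all 3 WT arrays, and the closest pair was again ICD 3 and WT 3. The difference was 0.22 ± 0.067 (SE), 1.16-fold with a 95% interval of 1.05 to 1.29 (limma unadjusted p = 0.0112, adjusted p = 0.72, exact permutation p = 0.1). It lay between 0.19 and 0.25 without any 1 array.

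Of 175 other genes in the lists used here, the one whose profile over the 6 arrays was most like that of Cldn1 was Cldn5, and the reverse held too (Pearson r = 0.892 over 6 arrays, given as a description of likeness). The best matches of the other claudins ran from 0.866 (Cldn4) to 0.986 (Cldn19), so a match this high was not particular to the pair. Cldn1 and Cldn5 both separate the arrays by genotype and place ICD 3 lowest among the ICD arrays and WT 3 highest among the WT arrays. They lie on the same chromosome but are not neighbours. Cldn16, which is the gene next to Cldn1 in the annotation, differed by 0.026.

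Markers of the cells that express these claudins were compared on the same arrays. Podocyte markers were higher in ICD kidneys for 8 of 8 measured genes, by a median of 0.38, against -0.012 over all genes at their brightest probe set. None passed over the whole table, and 6 had an unadjusted limma p under 0.05 (lowest adjusted p = 0.642), a level reached by 3.94% of all 18194 genes at their brightest probe set. The largest differences were those of Cdkn1c, a cell cycle inhibitor (0.55), Wt1, the podocyte transcription factor (0.52), and Ptpro, a podocyte membrane phosphatase (0.51). The podocyte score was 0.08, 0.24 and 0.21 on ICD arrays and -0.029, -0.28 and -0.22 on WT arrays, so it too did not overlap. Its part in the Cldn1 and Cldn5 values was not tested. In whole kidney RNA, more cells of a type and more RNA per cell cannot be told apart.

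The endothelial marker score overlapped between the groups. It was -0.043, 0.018 and 0.15 on ICD arrays, against 0.24, -0.07 and -0.30 on WT arrays, with the highest and the lowest value both in WT kidneys. The part of these marker levels in the Cldn5 values was not tested. By count 12 of 13 endothelial markers were higher in ICD kidneys (median 0.092, and -0.062 without WT 3), none at an unadjusted p under 0.05. Egfl7, a secreted endothelial factor, had the largest difference (0.25, 95% interval -0.069 to 0.57, and 0.079 without WT 3). Markers proposed for parietal epithelial cells, which include another claudin, were higher for 5 of 6 genes (median 0.067, and -0.028 without WT 3). They were led by Akap12, a kinase anchoring protein (0.24), and Ncam1, an adhesion molecule (0.12), with no unadjusted p under 0.05.

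**Figure D2:**
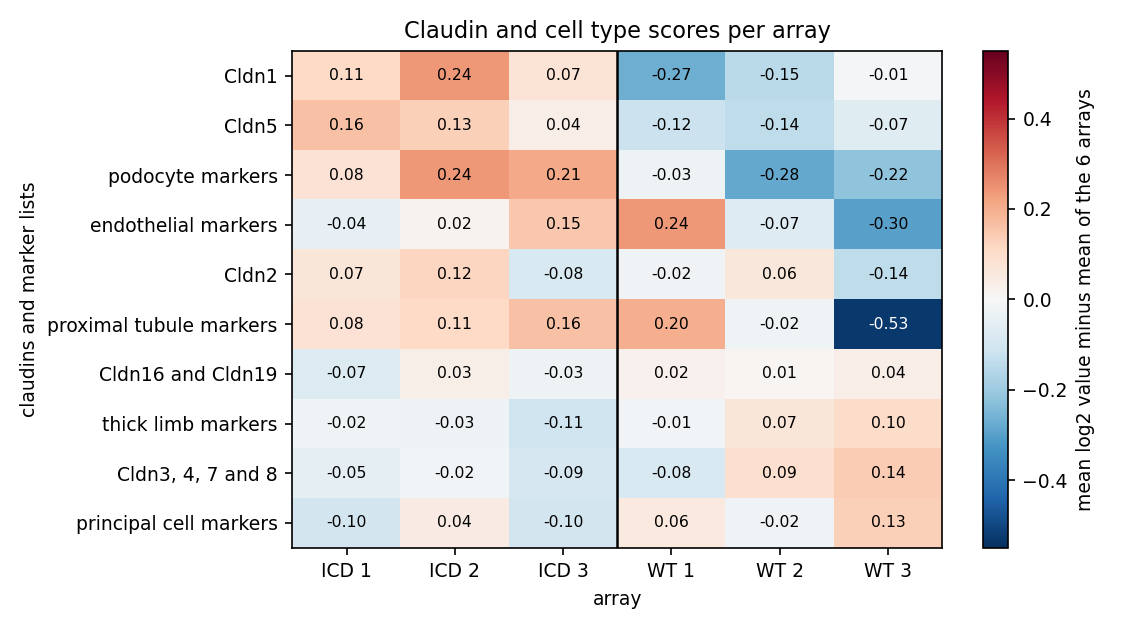
Deviation from the 6-array mean (log2) for claudins at their brightest probe set and for the marker lists of matching cells, one column per array with ICD left of WT. Cldn1, Cldn5 and the podocyte markers are above 0 on all ICD arrays and below 0 on all WT arrays, and WT 3 has the lowest proximal tubule score (-0.53) and the lowest Cldn2 value (-0.14).

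In the proximal tubule, Cldn2 forms the pore for cations and water, and it also continues into the thin descending limb. The bright probe set 1417231_at read 13.09, 13.14 and 12.94 (log2) on ICD arrays and 13.00, 13.08 and 12.88 on WT arrays. The groups overlapped, and WT 3 was the lowest of the 6 arrays, as it was for 8 of the 14 proximal tubule markers. Cldn2 differed by 0.067 ± 0.084 (SE), or 1.05-fold with a 95% interval of 0.916 to 1.2 (limma adjusted p = 0.979). The second probe set 1417232_at read 10.44, 10.71 and 10.15 on ICD arrays and 10.37, 10.34 and 10.06 on WT arrays, with WT 3 lowest again. Its difference was 0.17 (95% interval -0.16 to 0.51).

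The Cldn2 estimates depended on single arrays. At 1417231_at the difference was 0.013 without WT 3, 0.024 without ICD 2, 0.11 without WT 2 and 0.13 without ICD 3. At 1417232_at it was 0.035 without ICD 2, 0.076 without WT 3 and 0.32 without ICD 3. The proximal tubule markers with the largest differences were transporters that read low on WT 3. Slc5a12, a lactate transporter of the brush border, read 9.30, 9.27 and 10.47 on ICD arrays, against 10.35, 9.82 and 4.12 on WT arrays. Slc5a2, the glucose transporter SGLT2, read 11.87, 11.66 and 11.94 on ICD arrays, against 11.96, 11.29 and 10.40 on WT arrays. This was not so for every transporter of the segment. Slc22a6, an organic anion transporter, read 13.07 to 13.12 on ICD arrays and 13.17, 13.06 and 13.06 on WT arrays, and Slc22a7, another, was highest on WT 3 (12.56). Of the listed genes, the profile most like that of Cldn2 was Cgnl1, paracingulin, a cytoplasmic plaque protein of tight junctions (Pearson r = 0.931 over 6 arrays), which was lowest on ICD 3 and WT 3, as Cldn2 was.

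Cldn10 is shared by the proximal tubule, where isoform Cldn10a forms an anion pore, and the thick ascending limb, where Cldn10b forms a cation pore. One probe set, 1426147_s_at, measured the gene, and it is not given which isoforms it reads. It was 11.66, 11.87 and 11.65 on ICD arrays, against 11.75, 11.73 and 11.79 on WT arrays. The WT arrays lay within the range of the ICD arrays, which ICD 2 set at the top. The difference was -0.031 ± 0.079 (SE; 95% interval -0.21 to 0.15, limma adjusted p = 0.992). It was 0.002 without ICD 1, 0.0063 without ICD 3, -0.016 without WT 3 and -0.10 without ICD 2, so its sign turned with single arrays.

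Cldn16 and Cldn19 act together in the thick ascending limb, where they are needed for calcium and magnesium reabsorption; loss of either gene in humans causes renal magnesium wasting. Cldn16 (1420434_at) read 9.05, 8.99 and 8.82 on ICD arrays, against 8.89, 8.95 and 8.95 on WT arrays, a difference of 0.026 (95% interval -0.15 to 0.21). Its highest and lowest values were both from ICD kidneys, and the difference ran from -0.024 (without ICD 1) to 0.092 (without ICD 3). Cldn19 (1425727_at) read 6.75, 7.03 and 7.08 on ICD arrays, against 7.11, 7.03 and 7.08 on WT arrays. ICD 1 lay below all other arrays. The difference was -0.12 (95% interval -0.34 to 0.097), and -0.018 without ICD 1. The array that read lowest for Cldn19 read highest for Cldn16. On all the other arrays Cldn19 lay between 7.03 and 7.11.

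Segment markers of the thick limb were lower in ICD kidneys for 8 of 9 genes, by a median of -0.082. They include Cldn14, which is also counted among the other claudins below. Of the 9 genes, 1 had an unadjusted p under 0.05 (3.94% of all genes). That gene was Ptger3, a prostaglandin receptor, which read 9.90, 9.97 and 9.89 on ICD arrays, against 10.16, 10.26 and 10.40 on WT arrays (-0.35, limma adjusted p = 0.6). Kcnj1, the apical potassium channel, differed by -0.14. The profile most like that of Cldn16 was Egf, the growth factor made in thick limb and distal tubule (Pearson r = 0.985 over 6 arrays). Egf read 13.88, 13.79 and 13.62 on ICD arrays and 13.70, 13.79 and 13.79 on WT arrays, a difference of 0.010. Cldn14, which blocks the Cldn16 and Cldn19 pore, read 6.27, 6.34 and 6.30 on ICD arrays, against 6.41, 6.63 and 6.34 on WT arrays (-0.16, 95% interval -0.36 to 0.044, and -0.07 without WT 2). Casr, the calcium-sensing receptor that controls Cldn14, differed by -0.14 (95% interval -0.33 to 0.052, and -0.07 without ICD 3).

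The claudins of the distal nephron and collecting duct all had small negative differences at their brightest probe sets, with a median of -0.094, and none reached an unadjusted p under 0.05 on all 6 arrays. Without WT 1 the median was -0.17, and Cldn4 and Cldn7 did reach it (limma unadjusted p = 0.0465 and 0.0241, adjusted p = 0.684 and 0.626). In that fit 7.23% of all probe sets reached it, against 5.86% on all 6 arrays. Cldn8, which recruits Cldn4 to the junction where both form a chloride path, read 10.90, 10.87 and 10.85 on ICD arrays, against 10.88, 11.04 and 10.95 on WT arrays. The difference of -0.089 ± 0.069 (SE) had a 95% interval of -0.25 to 0.07 and was -0.048 without WT 2. Cldn7, which also lies on the basolateral membrane, read 8.65, 8.68 and 8.58 on ICD arrays, against 8.64, 8.87 and 8.84 on WT arrays. WT 1 lay among the ICD arrays and the other WT arrays lay above all of them. Cldn7 had the largest difference of the group, -0.14 ± 0.082 (SE; 95% interval -0.33 to 0.044, limma adjusted p = 0.913), and it was -0.22 without WT 1.

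Cldn4 (1418283_at) was uniform in ICD kidneys and scattered in WT kidneys. It read 7.73, 7.81 and 7.78 on ICD arrays, against 7.62, 7.87 and 8.11 on WT arrays, and the SD was 0.039 in ICD kidneys and 0.24 in WT kidneys. All 3 ICD values lay inside the WT range, whose top was WT 3. Its difference of -0.099 (95% interval -0.36 to 0.17) was 0.022 without WT 3 and -0.22 without WT 1. The listed gene most like Cldn4 was Lsr, the lipolysis-stimulated receptor of tricellular junctions (Pearson r = 0.866 over 6 arrays), which read 9.67, 9.61 and 9.66 on ICD arrays and 9.63, 9.66 and 9.84 on WT arrays.

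Cldn3, a barrier claudin found from the thick limb to the collecting duct, had 4 probe sets that did not share a sign. The brightest, 1434651_a_at, read 9.21, 9.26 and 9.11 on ICD arrays, against 9.21, 9.26 and 9.35 on WT arrays, a difference of -0.085 (95% interval -0.25 to 0.085) that was -0.045 without WT 3 and -0.043 without ICD 3. The differences were 0.015 at 1451701_x_at, 0.038 at 1460569_x_at and -0.076 at 1426332_a_at. WT 3 had the highest value of the 6 arrays at all 4 probe sets, at 9.35, 9.28, 9.10 and 7.84. Without WT 3 the difference at 1426332_a_at was 0.0019. Cldn3 and Cldn4 are next to each other in the annotation, and both were highest on WT 3.

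Principal cell markers lay lower in ICD kidneys for 10 of 12 genes (median -0.081, and -0.038 without WT 3), with 3 at an unadjusted p under 0.05 (3.94% of all genes). The largest differences were those of Elf5, a transcription factor of principal cells (-0.28), Avpr2, the vasopressin receptor (-0.23), and Aqp2, the water channel (-0.22, 95% interval -0.50 to 0.068). Elf5 and Avpr2 were among the 3 genes at that level, and Aqp2 was not. The principal cell score was -0.10, 0.045 and -0.10 on ICD arrays and 0.055, -0.021 and 0.13 on WT arrays. The score of Cldn3, Cldn4, Cldn7 and Cldn8 was -0.048, -0.017 and -0.092 on ICD arrays and -0.082, 0.094 and 0.14 on WT arrays. Both were highest on WT 3, and the part of the marker levels in the claudin values was not tested. Intercalated cell markers were higher for 4 and lower for 4 genes (median 0.0068), and markers of the distal convoluted tubule for 4 and 4 (median 0.00015). Urothelial markers were lower for 9 of 10 genes (median -0.095, and -0.033 without WT 1), with 2 at an unadjusted p under 0.05 (3.94% of all genes), Sprr1a, a cornified envelope protein (-0.22), and Psca, a surface antigen (-0.21). Thin limb markers were lower for 6 of 6 genes (median -0.17, and -0.09 without ICD 1), with 1 at an unadjusted p under 0.05 (3.94% of all genes). That gene, Sptssb, a subunit of serine palmitoyltransferase, had the largest difference (-0.40, limma adjusted p = 0.468). Over all genes at their brightest probe set, 43.9% were higher in ICD kidneys.

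The other claudins were matched to their most similar profile in the same way. The closest gene was Fxyd4, a regulator of the sodium pump in the collecting duct, for Cldn10 (Pearson r = 0.923 over 6 arrays), and Esam, an endothelial adhesion molecule, for Cldn19 (0.986). It was Atp6v0d2, a proton pump subunit, for Cldn3 (0.93), Crb3, an apical polarity protein, for Cldn7 (0.959), and Ybx3, a DNA-binding protein that shuttles to tight junctions, for Cldn8 (0.966). With 6 arrays and 175 genes to choose from, the best match is high for any profile, and the arrays are shared by both genes of a pair.

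**Figure D3:**
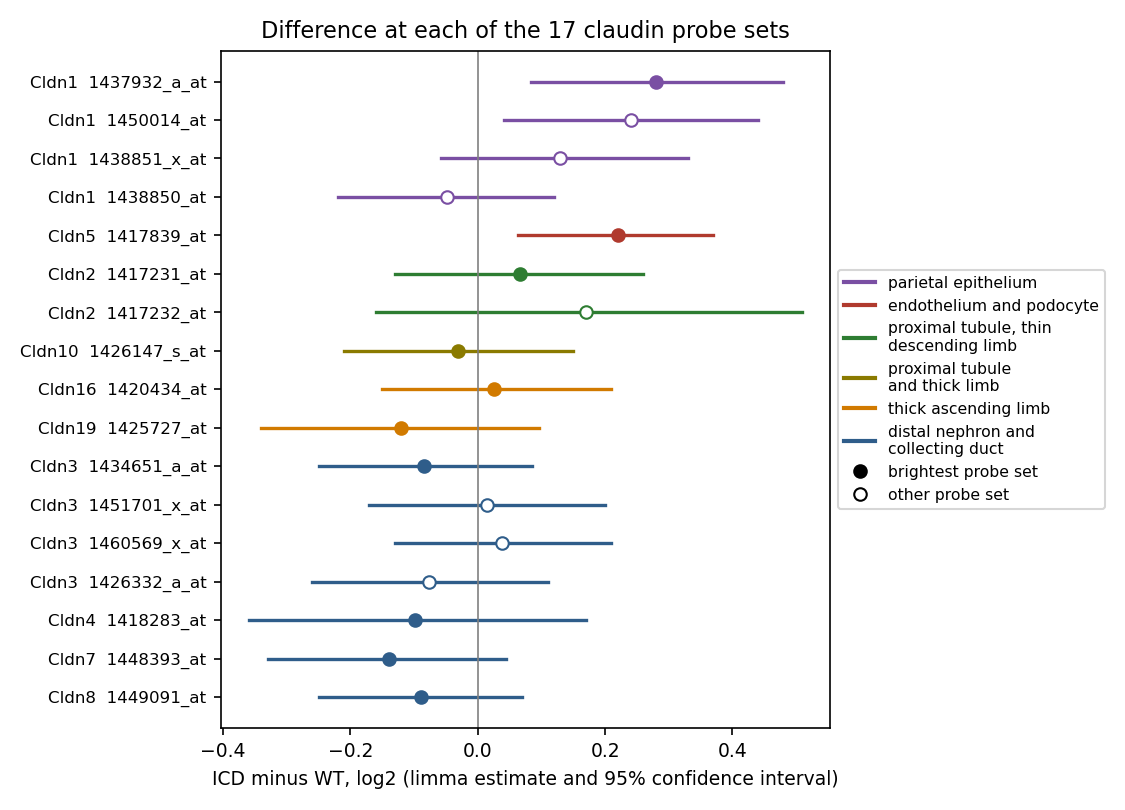
Limma estimates of ICD minus WT on the log2 scale with 95% confidence intervals for the 17 claudin probe sets, coloured by the place of the claudin and filled for the brightest probe set of each gene. The intervals of 2 Cldn1 probe sets and of Cldn5 lie above 0, and the other 14 include 0.

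By place along the nephron, at the brightest probe set of each gene, differences were positive for the claudins of the glomerulus and vessels (Cldn1 at 0.28, Cldn5 at 0.22) and for Cldn2 (0.067). They were negative for Cldn10 (-0.031), for the median of Cldn16 and Cldn19 (-0.047) and for the median of the distal claudins (-0.094). In all, 4 genes were positive and 6 negative, and 43.9% of all genes at their brightest probe set were positive. The quartiles of all differences lay at -0.067 and 0.058, so Cldn10 and Cldn16 fell inside them. A difference at least as large in size as that of Cldn7 was measured at 16.7% of all probe sets, and one as large as that of Cldn5 at 6.35%. The 95% intervals of the fold, ICD over WT, that 3 animals per group allowed were 0.916 to 1.2 for Cldn2, 0.864 to 1.11 for Cldn10, 0.899 to 1.15 for Cldn16, 0.792 to 1.07 for Cldn19 and 0.842 to 1.05 for Cldn8.

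**Figure D4:**
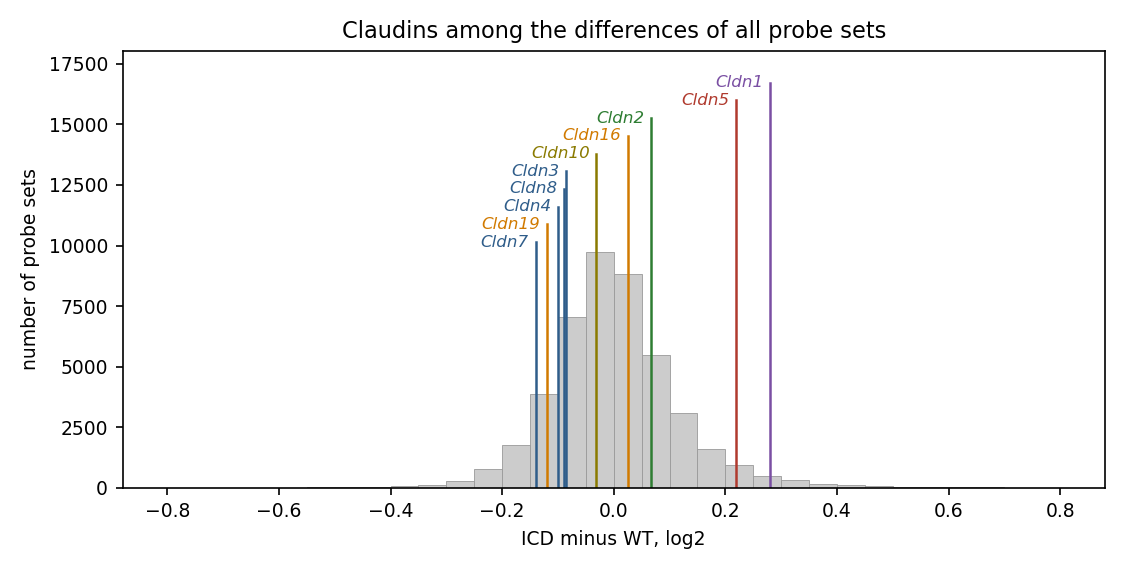
Histogram of ICD minus WT differences (log2) over all probe sets, in bins of 0.05, with lines at the 10 claudins at their brightest probe set; line heights carry no value. Cldn1 (0.28) and Cldn5 (0.22) lie in the upper tail, and the other claudins lie between -0.14 and 0.067 in the body of the distribution.

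Among other members of the claudin family, 5 of 13 measured genes were higher and 8 lower in ICD kidneys, with a median of -0.077 (-0.034 without WT 3, -0.04 without ICD 1 and -0.048 without WT 1). The gene at that median was near the floor of the arrays, brighter than only 4.8% of all probe sets. Of the 13 genes, the one at an unadjusted p under 0.05 (3.94% of all genes) was Cldnd2, a claudin domain protein with a dim probe set. Its difference was -0.18 (limma adjusted p = 0.836), and -0.13 without WT 2. Other membrane proteins of the tight junction were higher for 3 and lower for 10 genes (median -0.055), none at that level. Among them Ocln, occludin, read 8.95, 9.10 and 8.99 on ICD arrays and 9.10, 9.05 and 9.05 on WT arrays (-0.055, 95% interval -0.21 to 0.10).

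Scaffold and polarity proteins were higher for 14 and lower for 10 genes (median 0.013, and -0.033 without WT 1). Of these, 1 gene, Sympk, had an unadjusted limma p under 0.05 (3.94% of all genes). Tjp1, the scaffold ZO-1 to which claudin tails bind, read 10.15, 10.14 and 10.25 on ICD arrays, against 10.11, 10.13 and 10.01 on WT arrays, a difference of 0.096 (95% interval -0.066 to 0.26, and 0.058 without WT 3). Sympk, symplekin, a polyadenylation factor that also locates to tight junctions, read 7.90, 7.92 and 7.87 on ICD arrays, against 8.03, 8.06 and 8.29 on WT arrays (-0.23, limma unadjusted p = 0.0245, adjusted p = 0.795, and -0.15 without WT 3). Regulators of renal claudins were higher for 10 and lower for 10 genes (median 0.0021), with no unadjusted p under 0.05.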

How the data were processed

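RNA of 6 kidneys (3 ICD, 3 WT, grouped by the labels' titles) was measured on Affymetrix arrays. The deposited values are log2 expression per probe set, made with RMA per the submitters' processing notes; its version, the chip definition, filters and scan dates are not given in the sources used here. RMA brings arrays to near-equal distributions and compresses differences of dim probe sets. The number of arrays limits the precision.

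The 64 control rows were left out. The platform annotation gave 1 gene for 34945 probe sets, several for 932 and none for 9160. Entrez identifiers matched 34741 of them in the RefSeq table (GRCm38.p6), and 0 symbols changed. Limma 3.58.1 in R 4.3.3 (lmFit, eBayes, genotype as only term, 2-sided) was fitted to all 45037 probe sets with Benjamini-Hochberg adjustment, and was tested on simulated data. The simulation used normal noise, spreads drawn from limma's own prior, and changes larger than any claudin difference here. It therefore does not show how well differences of claudin size are found. List genes (176 of 194 measured) were read at the probe set with the highest mean, and a score averages each log2 value's deviation from its 6-array mean. Claudins and lists were chosen with earlier results of these data known.

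Named were all claudin probe sets; of the junction lists, genes with unadjusted p under 0.05 and Cldn14, Casr, Tjp1 and Ocln; of the cell type lists, at most 3 genes by size of difference; and each claudin's most similar profile. Added outside this rule, after values were seen, were Umod, Slc34a1, Nphs1 and Lrp2 as tissue checks and Slc22a6, Slc22a7 and Slc27a2 beside WT 3. Proximal tubule markers had a median difference of 0.079 (0.0053 without WT 3; 11 of 14 higher), blood and leukocyte markers 0.028 (5 of 8 higher). Alternatives were a replicate block, a trended robust prior, array weights, renewed quantile normalization, median centring, bright probe sets only, the mean of a gene's probe sets, and leaving out each array. Deviations of same-numbered ICD and WT arrays correlated at -0.0057, 0.0077 and -0.0466, and those of differently numbered arrays at -0.0621 to 0.0757. With 3 arrays per group these values cannot decide whether the numbers mark pairs. The design text names no block, so the main fit used none.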

Additional observations from a re-analysis of the deposited data

How the results depend on the processing

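No claudin probe set passed the adjusted threshold in limma under any of the 12 refits, and its lowest adjusted p there was 0.562, among bright probe sets only. The number of all probe sets that passed was 1 with a trended robust prior, and 0 to 1 when 1 array was left out. With the replicate block 0 of all probe sets passed, 9 claudin probe sets were higher in ICD kidneys and 3 had an unadjusted p under 0.05, as without it. The count higher in ICD kidneys ran from 7 to 11 without 1 array, and the count at an unadjusted p under 0.05 from 2 to 5. The share of all probe sets at that level ran from 4.74% to 7.23% in the same fits.

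The Cldn1 difference was 0.15 as the mean of its 4 probe sets, 2 of which are among the dimmest on the arrays, and 0.22 to 0.35 without 1 array. Without 1 array, Cldn5 ranged from 0.19 to 0.25, Cldn2 from 0.013 to 0.13, the median of Cldn16 and Cldn19 from -0.074 to -0.021 and that of the distal claudins from -0.17 to -0.068. Signs turned in some of these fits for Cldn10 (-0.10 to 0.0063), Cldn16 (-0.024 to 0.092), Cldn4 (-0.22 to 0.022) and Cldn3 (-0.029 to 0.079 at 1451701_x_at, -0.0059 to 0.098 at 1460569_x_at and -0.12 to 0.0019 at 1426332_a_at). The cause was not tested. Under the other 6 refits no claudin probe set changed sign.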
